A study of Homo sapiens with 11 samples.

Results

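The peaks around 8 genes of the SOX family other than SOX10 were described: SOX2, SOX4, SOX5, SOX6, SOX8, SOX9, SOX11 and SOX13. They are 8 of 20037 protein-coding genes in RefSeq (GRCh38.p14), chosen by name, and the locus of each was its gene body with 50 kb on either side. Peaks of 5 antibodies were counted at each locus. The cells were 92-1, an established line of uveal melanoma, a cancer of the pigment cells inside the eye. They were exposed for 4 h either to DMSO, the solvent control, or to FHT-1015, an inhibitor of SMARCA4 and SMARCA2, the alternative ATPases that drive the BAF chromatin remodelling complex. Chromatin was immunoprecipitated for SOX10, MITF, TFAP2A, SMARCA4 (also called BRG1) and H3K27ac, the histone acetylation found at active promoters and enhancers. Each antibody gave 1 library per condition, all from the same line, and a DMSO input made up the 11 samples. With 1 library per group no difference could be tested and no value has a replicate error. The 95% Wilson intervals below cover the counting of peaks only, and peaks of 1 library are not replicates.

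SOX proteins bind the minor groove of DNA through a shared HMG domain and bend it, and they are sorted into subgroups by the likeness of that domain. SOX10 belongs to subgroup E with SOX8 and SOX9, and maintains neural crest derivatives such as melanocytes, where it activates MITF. The subgroup D proteins SOX5, SOX6 and SOX13 carry a coiled coil through which they pair, and have no activation domain of their own. SOX5 is known to temper the activity of SOX10 in melanocytes. The subgroup C proteins SOX4 and SOX11 act in progenitor cells, and SOX2, of subgroup B1, in stem cells and neural progenitors.

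The labelled cell type was checked on H3K27ac peaks at a −log10 p of 10 or more over gene bodies. In DMSO 7 of 7 melanocyte lineage genes had one and 0 of 5 keratinocyte, endothelial and T-cell genes did. In FHT-1015 6 of the 7 had one, with DCT, a melanin-synthesis enzyme, as the exception. The whole lists held 33268 to 142667 peaks, the shortest being SOX10 in FHT-1015, with 103379 in DMSO. Where read pileups could be recovered as whole numbers, in 9 of the 10 lists, the median peak summit at the 8 loci rested on 11 to 21 reads. A DMSO peak is called retained if the same antibody has an FHT-1015 peak that overlaps it by 1 bp or more, and lost if not.

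At the 8 loci together SOX10 peaks were far fewer after FHT-1015, while H3K27ac peaks were mostly retained. SOX10 peaks numbered 204 in DMSO against 79 in FHT-1015, and 49 were retained, a share of 24% (95% interval 18.7 to 30.3). The DNA under SOX10 peaks went from 94.9 kb to 35.0 kb. The whole SOX10 list shortened as well, to 0.322 of its DMSO number, and less binding cannot be told apart here from a library in which fewer peaks could be called. The acetylation mark had 154 peaks in DMSO and 175 after FHT-1015, and 123 of the 154 DMSO peaks were retained, which is 79.9% (72.8 to 85.4). Its covered length went from 172 kb to 190 kb. The 3 other antibodies lay between these. For TFAP2A, an AP-2 factor of the neural crest and its pigment cells, 207 and 186 peaks were listed, with 67.1% retained (60.5 to 73.2). For SMARCA4 the numbers were 247 and 187, with 52.6% retained (46.4 to 58.8). For MITF, the master regulator of pigment cells, they were 155 and 145, with 45.2% retained (37.5 to 53.0). Similar MITF numbers did not mean shared peaks: 75 of its 145 FHT-1015 peaks had no DMSO counterpart. The whole MITF list was alike, with 89519 and 92716 peaks and 32447 of the DMSO peaks retained. Over that whole list the median summit rested on 15 reads in DMSO and 8 in FHT-1015.

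Pooled over peaks, the retained share at these loci was above that of the whole list for 4 antibodies and close to it for SMARCA4. Taken per gene window, the median share of the members was above that of all coding genes measured for H3K27ac only, at 80% and 64.7%. Over all peaks SOX10 retained 18.3%, MITF 36.2%, TFAP2A 54.9%, SMARCA4 52.0% and H3K27ac 59.3%. The whole list was then weighted by peak strength to match the peaks of the 8 loci. H3K27ac then stood at 53.0%, MITF at 33.7% and TFAP2A at 56.8%, each below its interval at the loci. SOX10 stood at 18.8%, just inside its interval, and SMARCA4 at 50.8%, also inside. The MITF share at the loci was uneven: 56.5% at SOX6, 37.3% at SOX5 and 38.5% over the other 6 loci (22.4 to 57.5). This last interval includes the weighted 33.7%. These intervals cover the counting of peaks only. The number of H3K27ac peaks over the whole list went to 0.706 of the DMSO number, against 1.14 at the 8 loci.

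**Figure D1:**
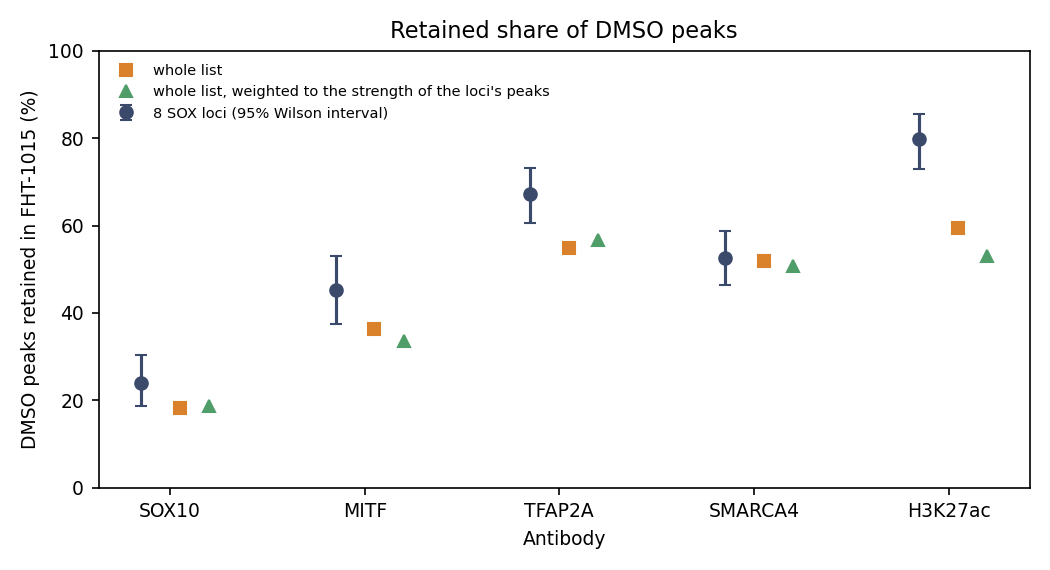
Share of DMSO peaks retained in FHT-1015 (percent, vertical axis) for each antibody, 1 library per condition. Circles with 95% Wilson intervals are the 8 SOX loci, squares the whole list, and triangles the whole list weighted to the strength of the peaks at the loci; the H3K27ac circle, at 79.9%, lies farthest above its whole list, at 59.3%.

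These sums were dominated by the subgroup D genes SOX5 and SOX6, whose bodies span 1033 and 772 kb. They held 79.4% of the DMSO SOX10 peaks of the 8 loci, 83.2% of the MITF peaks, 66.7% of the TFAP2A peaks, 81.8% of the SMARCA4 peaks and 85.1% of the H3K27ac peaks. At the other 6 loci the direction of the H3K27ac number turned, from 23 to 15 peaks, a ratio of 0.652, while the covered length was 23.7 kb and 23.3 kb. The TFAP2A number turned too, from 69 to 85, a ratio of 1.23, and the MITF numbers were 26 and 27. SOX10 had 42 and 22 peaks there, with 35.7% retained (23 to 50.8). Restricting both lists to peaks at a −log10 p of 10 or more lowered the number ratio for SOX10 from 0.387 to 0.222 (81 and 18 peaks) and for MITF from 0.935 to 0.554 (56 and 31). When such strong DMSO peaks were set against the whole FHT-1015 list, the retained share was 43.2% for SOX10 and 78.6% for MITF.

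Per gene, 6 of the 8 loci had the 5 or more DMSO SOX10 peaks asked for before a ratio was read, and at 5 of them the SOX10 number was lower by at least 1.5-fold: SOX2, SOX5, SOX6, SOX13 and SOX8. The same held for 87.1% of 14287 coding genes measured in this way, a share close to that of the members. The exception was SOX4. The number of MITF peaks was lower by that much at 1 of 5 loci, SOX13, with a background of 30.2%. For TFAP2A it was lower at 2 of 7, SOX2 and SOX9, with a background of 22.9%. For SMARCA4 it was lower at 3 of 6, SOX4, SOX5 and SOX8, with a background of 21.4%. For H3K27ac it was lower at 2 of 4, SOX4 and SOX8, with a background of 50%. None of the members with 5 or more DMSO peaks was higher by 1.5-fold for any of the 5 antibodies, where the backgrounds were 0.252% for SOX10, 8.34% with MITF, 8.3% with TFAP2A, 8.48% with SMARCA4 and 1.12% with H3K27ac. That minimum leaves out loci that were low in DMSO, and some of those had more peaks in FHT-1015: SMARCA4 at SOX9 (3 and 6), MITF at SOX2 (2 and 4), TFAP2A at SOX11 (1 and 4) and MITF at SOX11 (0 and 4).

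By retained share, under 50% of the DMSO peaks were retained at 5 of 6 loci for SOX10, where the background was 91.5%, with SOX4 again the exception. The same held at 3 of 5 loci for MITF (SOX5, SOX13 and SOX8; background 54.1%), at 1 of 7 for TFAP2A (SOX9; 20.4%), at 0 of 6 for SMARCA4 (24.9%) and at 0 of 4 for H3K27ac (20.7%). The median retained share over the members and over all genes was 21.3% and 21.4% for SOX10, 37.3% and 44.4% with MITF, 65.8% and 66.7% with TFAP2A, 56.7% and 60% with SMARCA4, and 80% and 64.7% with H3K27ac. The H3K27ac medians were thus the farthest apart. By covered length, SOX10 was lower by at least 1.5-fold at 5 of 6 loci (background 96.5%), MITF at 2 of 5, SOX13 and SOX8 (35.4%), and TFAP2A at 1 of 7, SOX9 (19.6%). SMARCA4 covered length was lower by that much at 0 of 6 loci (7.24%) and H3K27ac covered length at 0 of 4 (28.4%). In the other direction 1 member passed, SOX13 with SMARCA4 (17.4%), and 0 members did with SOX10 (0.056%), MITF (3.79%), TFAP2A (7.44%) or H3K27ac (0.619%).

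**Figure D2:**
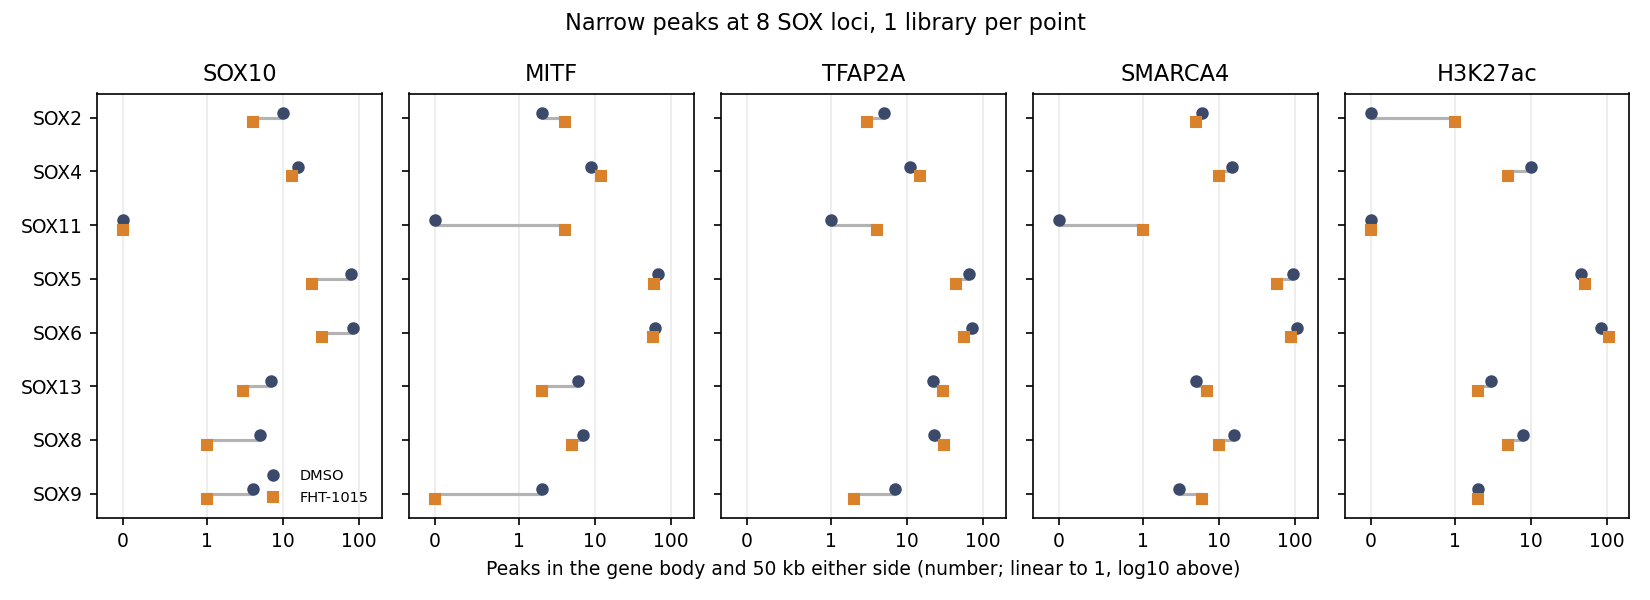
Number of peaks (horizontal axis, linear to 1 and log10 above) at each SOX locus for each antibody in DMSO (circles) and FHT-1015 (squares), 1 library per point. SOX5 and SOX6 carry most of the peaks, SOX11 has almost none, and SOX10 squares lie left of the circles at every locus except SOX11, where both are 0.

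SOX6 (chr11:15966449-16738477) carried the most SOX10 peaks of the 8 loci, 84 in DMSO and 33 in FHT-1015, with 19 retained (22.6%, interval 15.0 to 32.6). Its H3K27ac number went the other way, from 85 to 108 peaks and from 95.6 to 113 kb, with 68 of the 85 retained. That ratio of 1.27 was above the ratio of 97.0% of the coding genes measured. MITF had 62 and 58 peaks, TFAP2A 73 and 56, and SMARCA4 108 and 89. The window also holds C11orf58 and PLEKHA7.

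The outermost SOX6 start lies head to head with C11orf58, whose annotated start is at position 16738647 on the opposite strand, with 169 bases between. The TFAP2A peak over this start was the strongest TFAP2A peak of the locus in both conditions, with an authors' −log10 p of 226 in DMSO and 233 in FHT-1015. H3K27ac lay over it in both conditions with 156 and 239, and SOX10 with 23.9 and 6.47. No SMARCA4 peak covered the start itself in either condition. Such −log10 p values and fold enrichments are the authors' own values per peak. They depend on the depth of each library, so they are set side by side here and not read as a change.

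The RefSeq promoter table lists 5 starts for SOX6, and SOX10 peaks in DMSO covered 3 of them: the outermost and 2 starts inside the gene. At the inner start at 16356546 the SOX10 peak was retained, with a −log10 p of 47.6 in DMSO and 6.41 in FHT-1015, beside H3K27ac at 127 and 242 and SMARCA4 at 15.9 and 23.3. The same DMSO SOX10 peak also overlapped a stronger FHT-1015 SOX10 peak, at 24.3, that lay upstream of this start. At the inner start at 16402863 the SOX10 peak, at 17.6, was lost, and no peak of the other 4 antibodies covered the start base itself in either condition. In DMSO a SMARCA4 peak at 4.50 overlapped the bases before that start, and a MITF peak at 2.66 lay just downstream of it. Both were lost as well. The 2 remaining starts, at 16476388 and 16408856, were covered by no peak of any antibody. The stretches before the 3 SOX10-covered starts are shown because they differ in what remained after treatment. They are from RefSeq (GRCh38.p14), on the minus strand, 5′ to 3′, and the first is limited to the bases between the 2 genes. The DMSO SOX10 peak covered every base of each. Capitals mark ACAAT, the core of the SOX motif, on either strand; 24.6% of the 35116 RefSeq promoters hold it in the 250 bases before the start.
SOX6 outermost start, chr11:16738478-16738646, SOX10 peak retained: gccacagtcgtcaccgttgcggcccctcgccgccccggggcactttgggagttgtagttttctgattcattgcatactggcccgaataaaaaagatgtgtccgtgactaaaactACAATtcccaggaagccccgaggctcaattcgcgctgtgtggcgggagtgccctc
SOX6 inner start, chr11:16356547-16356796, SOX10 peak retained: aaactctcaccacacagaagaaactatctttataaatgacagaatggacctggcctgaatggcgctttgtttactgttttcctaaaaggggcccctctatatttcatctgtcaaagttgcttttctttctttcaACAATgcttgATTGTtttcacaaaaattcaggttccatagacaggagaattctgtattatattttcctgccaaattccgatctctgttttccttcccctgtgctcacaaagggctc
SOX6 inner start, chr11:16402864-16403113, SOX10 peak lost: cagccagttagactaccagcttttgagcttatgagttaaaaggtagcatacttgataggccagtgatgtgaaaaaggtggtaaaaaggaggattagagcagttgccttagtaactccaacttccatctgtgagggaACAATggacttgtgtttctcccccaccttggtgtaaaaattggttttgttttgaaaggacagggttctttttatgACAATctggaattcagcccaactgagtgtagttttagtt
The stretch with the lost peak holds ACAAT at 114 and 39 bases before the start, and the inner stretch with the retained peak holds it at 116 and, on the other strand, 106 bases. Both inner stretches thus hold the letters 2 times. The 250 bases before the 2 starts without a peak hold ACAAT too, at 168 and 97 bases for 16476388 and at 87 bases for 16408856. The letters therefore do not set the covered starts apart. The share of G and C was 39.2% and 40.8% before the 2 inner starts shown. It was 27.2% and 37.6% before the 2 without a peak, against a median of 58% over all promoters. A match is a description of the letters and not a measured binding site.

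Deep inside SOX6 lay one of the strongest SOX10 peaks of the series. The site chr11:16147737-16149230, 590 kb into the gene, ranked 10 of 103379 SOX10 peaks in DMSO and 4 of 33268 in FHT-1015, with −log10 p values of 291 and 226. All 5 antibodies had a peak there in both conditions. MITF stood at 287 and 327, TFAP2A at 180 and 225, SMARCA4 at 55.7 and 83.9, and H3K27ac at 211 and 318. Its H3K27ac domain spanned 5.27 kb in DMSO and 6.53 kb in FHT-1015.

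The strongest lost SOX10 site of SOX6 differed from that one. At chr11:16695247-16696113, 42.8 kb into the gene, SOX10 at 85.7, MITF at 55.0 and TFAP2A at 60.1 were listed in DMSO and had no peak in FHT-1015. SMARCA4 and H3K27ac peaks stayed listed there, at 13.8 and 10.9 for SMARCA4 and at 56.9 and 23.9 for H3K27ac. The 3 transcription factors were thus lost at a site where the mark and the remodeller were still called.

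**Figure D3:**
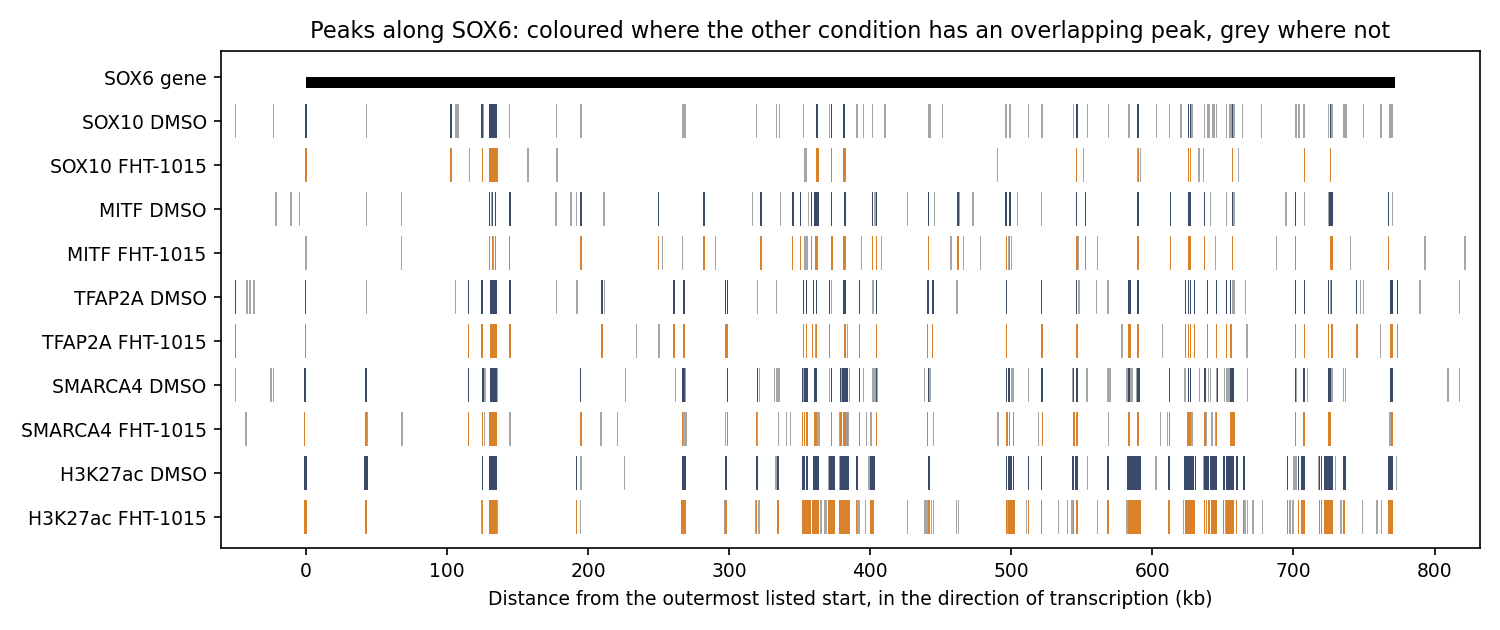
Peaks of each antibody and condition along SOX6 (horizontal axis: kb from the outermost start, in the direction of transcription). Blue (DMSO) and orange (FHT-1015) ticks overlap a peak of the other condition, grey ticks do not, and the black bar is the gene; the SOX10 row thins from 84 to 33 peaks while the H3K27ac row goes from 85 to 108.

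The loss of SOX10 peaks was uneven along SOX6. In 100 kb segments counted from the outermost start, the segment from 100 to 200 kb had 13 DMSO and 11 FHT-1015 peaks of SOX10, whereas the other 8 segments together had 70 and 22. The first segment also took in the 50 kb before the start, and the last was shorter, from 800 to 822 kb. A DMSO SOX10 peak at the edge of the window was counted in no segment. In the segment from 700 to 800 kb SOX10 went from 17 to 2 peaks, beside 13 and 14 H3K27ac peaks that covered 19.4 and 15.1 kb. In the segment from 300 to 400 kb the H3K27ac covered length went from 21.1 to 30.6 kb at 20 peaks in both conditions, so the same number of peaks covered more DNA. These segments were picked after their values were seen and describe the map only.

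SOX5 (chr12:23529504-24562650) had 78 DMSO and 24 FHT-1015 peaks of SOX10, with 15 retained (19.2%, interval 12.0 to 29.3). H3K27ac had 46 and 52 peaks, with 38 retained (82.6%, interval 69.3 to 90.9), and covered 52.3 and 53.5 kb; among peaks at a −log10 p of 10 or more its number ratio turned to 0.955. MITF had 67 and 60 peaks, of which 25 were retained. TFAP2A had 65 and 45, and SMARCA4 94 and 59. SOX5 thus shared with SOX6 the pairing of many lost SOX10 peaks with retained acetylation. The SOX10 retained shares of SOX5 and SOX6 were above those of 42.5% and 53.5% of the coding genes measured. Their H3K27ac retained shares were above those of 80.9% and 73.6%. Peaks of all 5 antibodies covered the SOX5 start at position 24562491 in both conditions, with H3K27ac at a −log10 p of 108 and 126 and SOX10 at 9.50 and 4.84.

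The strongest DMSO SOX10 and MITF sites of SOX5 were occupied by all 5 antibodies in both conditions. At chr12:23906288-23906832, 656 kb into the gene, SOX10 was listed at 121 in DMSO and 84.9 in FHT-1015, MITF at 62.3 and 166, TFAP2A at 8.23 and 9.85, SMARCA4 at 19 and 67.0, and H3K27ac at 21.3 and 123. At chr12:23658849-23659922, 903 kb into the gene, MITF was listed at 281 and 38.8, SOX10 at 105 and 7.61, TFAP2A at 117 and 14.9, SMARCA4 at 41.5 and 13.8, and H3K27ac at 74.4 and 38.4. The strongest TFAP2A peak of the gene, at chr12:24488836-24489709, had 215 and 83.5.

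The strongest lost SOX10 site in SOX5, chr12:23757492-23758172, had a SOX10 −log10 p of 66.7 in DMSO. The MITF peak there, at 5.74, was lost too. TFAP2A, at 180 and 22.1, SMARCA4, at 31.1 and 9.09, and H3K27ac, at 9.65 and 13.3, were retained. By segment, the stretch from 600 to 700 kb, also picked after its values were seen, had 11 DMSO and 9 FHT-1015 peaks of SOX10, while the other 10 segments together had 67 and 15. The H3K27ac covered length in that stretch was 10.2 and 16.9 kb.

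**Figure D4:**
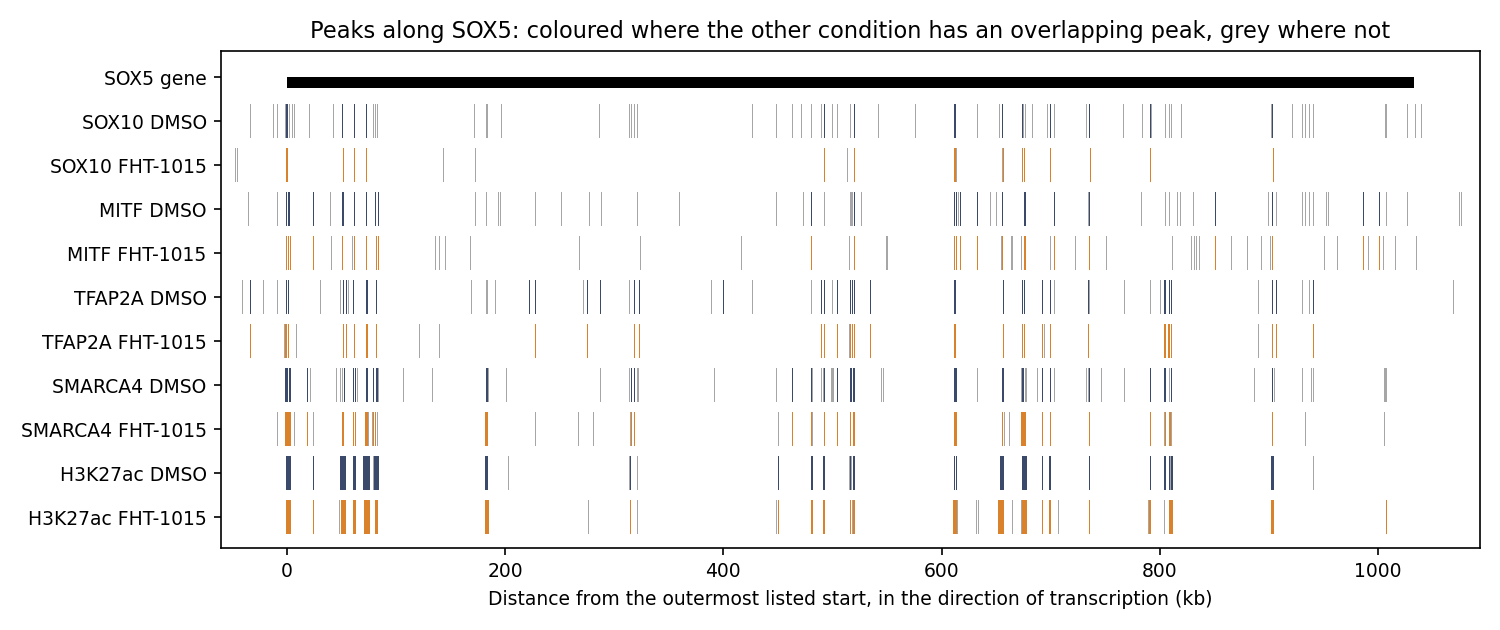
Peaks of each antibody and condition along SOX5 (horizontal axis: kb from the annotated start, in the direction of transcription). Blue (DMSO) and orange (FHT-1015) ticks overlap a peak of the other condition and grey ticks do not; SOX10 peaks go from 78 to 24, with 9 of the 24 between 600 and 700 kb.

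SOX13 (chr1:204073115-204127743), the third subgroup D gene, was occupied mainly by TFAP2A. It had 22 TFAP2A peaks in DMSO and 30 in FHT-1015, with 16 retained (72.7%). Counting only peaks at a −log10 p of 10 or more, that direction turned, with 12 and 10. SOX10 had 7 and 3 peaks, with 1 retained, and MITF 6 and 2, with 0 of 6 retained (interval 0 to 39.0%). Within 100 kb on either side the MITF numbers were 8 and 6.

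Over the SOX13 start TFAP2A was listed in both conditions, at a −log10 p of 38.1 and 37.7, and H3K27ac at 10.5 and 6.30. The SOX10 peak over it, at 13.2 in DMSO, was retained through an FHT-1015 peak at 2.24 that began just downstream of the start. The SMARCA4 peak at this start spanned 1.62 kb at 10.2 in DMSO, beginning just downstream of the start, and 2.43 kb at 36.7 in FHT-1015. The SMARCA4 covered length of the locus went from 3.10 to 5.36 kb.

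SOX4 (chr6:21593751-21598619) had the highest retained SOX10 share of the 6 loci measured. It had 16 DMSO and 13 FHT-1015 peaks of SOX10, and 9 of the 16 were retained (56.2%, interval 33.2 to 76.9), a share above that of 95.8% of the coding genes measured. MITF had 9 and 12 peaks with 7 retained, TFAP2A 11 and 15 with 8 retained, and SMARCA4 15 and 10 with 8 retained. When only peaks at a −log10 p of 10 or more were counted, SOX10 had 8 and 4, and the TFAP2A direction turned, with 7 and 6. The SOX10 number at SOX4 was thus lower by more than 1.5-fold among the stronger peaks.

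The body of SOX4, a gene of 1 exon, lay under one of the strongest acetylation domains of the series. The H3K27ac peak over its start ranked 6 of 68093 in DMSO and 6 of 48103 in FHT-1015, with −log10 p values of 380 and 437. It spanned 7.0 kb in DMSO and 10.2 kb in FHT-1015, and the FHT-1015 peak overlapped 5 DMSO peaks. The H3K27ac number of the locus went from 10 to 5, with 8 DMSO peaks retained, 2 lost and 1 peak in FHT-1015 only, and the covered length was 18.1 and 18.4 kb. SOX10 peaks over the start were listed at 41.3 and 20.1, TFAP2A at 14.2 and 21.1, and MITF at 8.35 and 2.79.

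The strongest SOX10 peak and the strongest lost SOX10 peak of the locus both lay downstream of SOX4. The strongest, chr6:21647423-21648695, lies outside annotated genes and reaches past the end of the window. There SOX10 was listed at 106 and 5.46, MITF at 188 and 47.9, SMARCA4 at 29.6 and 6.04, and H3K27ac at 170 and 129, and TFAP2A, at 16.6 in DMSO, was lost. At chr6:21638780-21639499, 45.4 kb from the start, SOX10 at 31.5, MITF at 26.2 and SMARCA4 at 11.8 were lost. TFAP2A, at 76.9 and 9.40, and H3K27ac, at 60.2 and 16.3, were retained at that site.

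SOX11 (chr2:5692384-5701385), the other subgroup C gene, was nearly empty. It had 0 SOX10 and 0 H3K27ac peaks in both conditions. TFAP2A had 1 peak in DMSO and 4 in FHT-1015, MITF 0 and 4, and SMARCA4 0 and 1. None of these had a −log10 p above 5.87, which belonged to the DMSO TFAP2A peak at chr2:5748158-5748696. SOX4, its subgroup partner, had 16 SOX10 and 10 H3K27ac peaks in DMSO.

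SOX2 (chr3:181711925-181714436) had DMSO peaks of all 3 transcription factors and of SMARCA4 but not of H3K27ac. It had 0 H3K27ac peaks in DMSO and 1 in FHT-1015, beside 10 and 4 SOX10 peaks, 5 and 3 TFAP2A peaks, 6 and 5 SMARCA4 peaks, and 2 and 4 MITF peaks. Over the start, SOX10 was listed at a −log10 p of 6.86 and 3.73, MITF at 14.9 and 9.10, and TFAP2A at 6.44 and 11.7, while a SMARCA4 peak, at 4.78, was there in FHT-1015 only. The stretch before the start is shown because MITF, TFAP2A and SOX10 peaks in DMSO met on it. Capitals mark an AP-2 type match, GCCNNNGGC, 131 bases before the start, and an E-box, CATGTG read on the other strand, 6 bases before it. These motifs are held by 19.8% and 9.42% of the 35116 promoters over the same length on either strand, and the stretch holds no ACAAT.
SOX2 start, chr3:181711675-181711924, plus strand, RefSeq GRCh38.p14: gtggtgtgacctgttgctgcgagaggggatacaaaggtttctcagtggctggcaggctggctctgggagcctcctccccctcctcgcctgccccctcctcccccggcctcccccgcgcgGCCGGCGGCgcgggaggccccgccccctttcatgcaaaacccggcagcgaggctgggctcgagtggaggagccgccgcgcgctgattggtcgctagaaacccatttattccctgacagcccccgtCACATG

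The strongest SOX10, TFAP2A and SMARCA4 peaks of the SOX2 locus lay away from the promoter, whereas the strongest MITF peak was the one over the start. At chr3:181752060-181752806, 40.5 kb downstream and outside annotated genes, SOX10 was listed at 113 and 71.9, TFAP2A at 171 and 134, SMARCA4 at 14.5 and 33.7, and MITF at 3.14 and 6.85. H3K27ac had no peak there in DMSO and one of 3.79 in FHT-1015. The strongest lost site, chr3:181725849-181726162, lies in the long noncoding gene SOX2-OT, within which SOX2 itself sits. TFAP2A at 35.3 and SOX10 at 26.8 had no FHT-1015 peak there.

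Of the subgroup E genes, SOX8 (chr16:981770-986979) lay in a window rich in TFAP2A. TFAP2A had 23 peaks in DMSO and 31 in FHT-1015, with 21 of the 23 retained (91.3%, interval 73.2 to 97.6), a share above that of 93.0% of the coding genes measured. SMARCA4 had 16 and 10 peaks, H3K27ac 8 and 5, MITF 7 and 5 with 1 retained, and SOX10 5 and 1. The retained SOX10 site, chr16:972352-973058, lies 9.07 kb from the SOX8 boundary inside LMF1, so it cannot be assigned to either gene from its position. It ranked 195 in the DMSO SOX10 list with a −log10 p of 198, and had 39.6 in FHT-1015. TFAP2A stood there at 170 and 73.4, SMARCA4 at 54.8 and 22.9, MITF at 9.94 and 12.2, and H3K27ac at 7.48 and 15.5. The window also holds LOC102723713.

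SOX9 (chr17:72121020-72126416), which directs cartilage and testis development, had few peaks. SOX10 had 4 and 1, MITF 2 and 0, TFAP2A 7 and 2, SMARCA4 3 and 6, and H3K27ac 2 and 2. The retained TFAP2A share, 2 of 7 (28.6%, interval 8.22 to 64.1), was the lowest of the 7 loci measured. The strongest site was a SMARCA4 peak at the lower gene boundary, chr17:72120998-72122099, with a −log10 p of 25.1 in DMSO and 65.7 in FHT-1015. H3K27ac over it was at 7.73 and 3.94, and no MITF peak was there in either condition. The 2 closest relatives of SOX10 thus had few SOX10 peaks themselves, 5 and 4 in DMSO.

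Over the 8 loci together, SOX10 peaks that overlapped a peak of another antibody were retained in a larger share than those that did not. Of the 204 DMSO SOX10 peaks at the 8 loci, 120 (58.8%) overlapped a DMSO H3K27ac peak, and 35.8% of those were retained (27.8 to 44.7), against 7.14% of the 84 without one (3.31 to 14.7). For SMARCA4 the shares were 34.4% of 125 with a peak and 7.59% of 79 without. For TFAP2A they were 37.2% of 113 and 7.69% of 91, and for MITF 43.6% of 78 and 11.9% of 126. The whole SOX10 list had the same order for each antibody, with 29.6% and 7.21% for H3K27ac and 26.5% and 11.6% for MITF, so the pattern was not particular to the SOX loci. These 4 sets of peaks overlap each other in part, and their strength was not matched in this comparison.

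**Figure D5:**
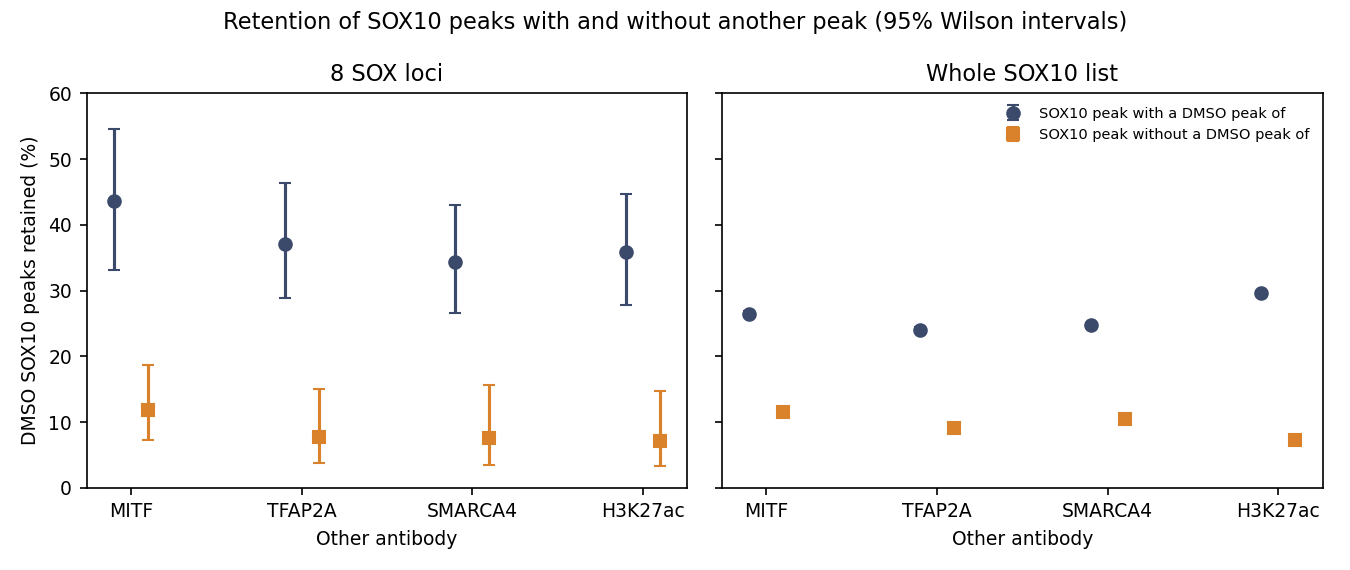
Share of DMSO SOX10 peaks retained in FHT-1015 (percent, vertical axis), for peaks with (circles) and without (squares) a DMSO peak of another antibody, at the 8 SOX loci (left) and in the whole list (right). Bars are 95% Wilson intervals over peaks; at the loci 35.8% of peaks with H3K27ac and 7.14% of those without were retained.

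Loss of SOX10 at an acetylated site was mostly not accompanied by loss of the H3K27ac call. Of the 77 lost SOX10 peaks that overlapped H3K27ac in DMSO, 63 overlapped an H3K27ac peak in FHT-1015 as well, which is 81.8% (71.8 to 88.8), and over the whole list the share was 70.4%. Of all DMSO H3K27ac peaks, 79.9% were retained at the loci and 59.3% over the whole list. The share at the loci was thus close to that of all H3K27ac peaks there. More than 1 lost SOX10 peak could lie under the same H3K27ac peak. SOX6 had 37 such SOX10 peaks of 45 and SOX5 17 of 21. At SOX5 none of the 42 SOX10 peaks without H3K27ac was retained (interval 0 to 8.38%), nor was any of the 40 without TFAP2A. At SOX6 the count without H3K27ac was 1 of 21. At SOX4, with 16 SOX10 peaks, the shares for 3 antibodies lay close together: 57.1% of the 14 with H3K27ac and 50% of the 2 without, 57.1% of the 7 with TFAP2A and 55.6% of the 9 without, 62.5% of the 8 with SMARCA4 and 50% of the 8 without. With MITF it was 80% of 5 and 45.5% of 11.

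Another 11 genes of the family were measured in the same windows for comparison: SOX1, SOX3, SOX7, SOX10, SOX12, SOX14, SOX15, SOX17, SOX18, SOX21 and SOX30. For SOX10 peaks 7 of them could be measured and all 7 were lower by at least 1.5-fold, with a median retained share of 16.7%. The background over all coding genes measured was 87.1%. H3K27ac was lower at 1 of 4, SOX12 (background 50%), with a median retained share of 80%, the same as over the 4 members measured. SOX4 was thus the only measured SOX locus where the SOX10 number was not lower by 1.5-fold in the full lists.

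The coding gene with the nearest occupancy profile was found for each member, by Euclidean distance over the 10 lists of log2 covered bases per kb plus 1. SOX6 was nearest to TBC1D4 (distance 0.426, against a median of 4.88 over all genes compared) and SOX5 to SRPK2 (0.522, median 3.99). SOX4 was nearest to H3C6 (0.751), SOX11 to OR7C2 (0.867), SOX8 to LLGL2 (0.918), SOX13 to CIBAR2 (1.25), SOX9 to LDOC1 (1.61) and SOX2 to CD300A (1.70). No member was the nearest gene of another member.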

How the data were processed

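ChIP-seq peak lists of 92-1 cells were used as deposited, 14 in all: 10 narrow lists, 1 for each antibody and condition, and 4 broad lists for SMARCA4 and H3K27ac. Per the submitters' processing notes, BWA, SAMtools, Picard and MACS2 were used with the build hg38; versions and settings are not given in the sources used here. Every list held only peaks with a deposited −log10 p above 2. The deposited lists give for each peak a score, a fold enrichment over background (a ratio), and −log10 p and −log10 q. In the narrow lists the deposited score equals 10 times the −log10 p. Reads per summit were recovered from the deposited fold and −log10 p and were whole to within 0.01 reads for 98.8% to 100% of the peaks in 9 narrow lists. In the SOX10 FHT-1015 list 1.26% were whole, and its depth is unknown here.

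Repeated entries for identical coordinates were merged, and a peak belonged to a locus if it shared at least 1 bp with the window. Covered length is the union of peaks cut at the window ends. The background is the same measure over the windows of all RefSeq protein-coding genes with at least 5 DMSO peaks of the antibody. No test was run, because each group has 1 library. Whether an FHT-1015 list is shorter through depth or through binding cannot be told apart. Promoter letters came from the RefSeq table, which matched 5 members (9 starts); for the other members, gene boundaries within 1 kb were used. Named peaks were, for each member, the strongest DMSO peak of each antibody and the strongest lost and FHT-1015-only peaks; the 100 kb segments, the overlap of SOX10 with other peaks and the other peak values printed were added to that. The members and lists were chosen with earlier results of these data known. Python 3.11.15, numpy 2.4.6, pandas 2.3.3, scipy 1.17.1, statsmodels 0.14.6 and matplotlib 3.10.9 were used, and the interval and overlap code was tested on simulated data. The input library was not analysed here.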

Additional observations from a re-analysis of the deposited data

How the results depend on the processing

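Among the alternative values for the sums over the 8 loci, 76 stayed within 1.5-fold of the reported ratio, or within the reported interval of a retained share, and 15 did not. With the gene body alone, with 100 kb on either side, with peaks of q under 0.05 and with the broad lists, all stayed within them. Restricting both lists to a −log10 p of at least 10 gave number ratios of 0.222 for SOX10 and 0.554 for MITF, and retained shares of 55.2% for TFAP2A, 59.5% for SMARCA4 and 90.6% for H3K27ac. Looking up only such strong DMSO peaks in the complete FHT-1015 lists gave retained shares of 43.2% for SOX10, 78.6% for MITF, 83.8% for TFAP2A, 85.7% for SMARCA4 and 100% for H3K27ac. Asking that 50% of the DMSO peak be covered gave 15.7% for SOX10. Without SOX5 and SOX6, an alternative chosen after seeing the data, the H3K27ac number ratio was 0.652, and the retained shares were 35.7% for SOX10, 73.9% for TFAP2A and 62.2% for SMARCA4. Within those limits, ratios near 1 still crossed it: without SOX5 and SOX6 the number ratio was 1.23 for TFAP2A and 1.04 for MITF, and the covered length ratio 1.08 for TFAP2A, 1.10 for SMARCA4 and 0.985 for H3K27ac. At a −log10 p of at least 10 the SMARCA4 covered length ratio was 1.03. The cause of these shifts was not tested. Among values for single genes, 33 stayed within 1.5-fold and 10 did not. No paired analysis was possible because each antibody and condition has 1 library. The share of calls with q under 0.05 differed between lists: 61.1% of MITF peaks and 57.9% of SOX10 peaks in FHT-1015 passed it, against 89.7% and 92.3% in DMSO.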
